A study of Mus musculus with 68 samples.

Results

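In 3 RNA-seq experiments on mouse embryonic stem cells (ESCs), 10 genes of the fibroblast growth factor (FGF) pathway were followed: the ligand gene Fgf4, the receptor genes Fgfr1, Fgfr2, Fgfr3 and Fgfr4, the co-receptor gene Klb, the transcription factor genes Etv4 and Etv5, and the inhibitor genes Spry4 and Dusp6. They are 10 of the 55335 genes counted, and each was found under 1 Ensembl identifier in all 3 count tables. The genes were listed by name with earlier results of these data known, among them the level of Klb in the rescue experiment. Klb was higher in clones carrying the MCM2-2A mutation than in wild-type (WT) clones in every batch in which both were analysed. Of the other 9 genes none was called between the genotypes across clones, where 0.679% of all genes tested were called. Between August clones of the same genotype 7 of them differed, where 24.3% of all genes tested did among WT clones and 18.8% among MCM2-2A clones. None of the 10 passed the limits of a call in POLE4 knockout lines, where 2.98% to 11.5% of all genes tested were called by line.

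FGF4 made by ESCs and by the early epiblast binds FGF receptors, with heparan sulphate as a cofactor, and activates the RAS, RAF, MEK and ERK kinases. ERK activity moves ESCs out of the naive state and, in the inner cell mass, favours primitive endoderm over epiblast. Klb encodes beta-Klotho, which lets FGF receptors respond to the endocrine factors FGF15 and FGF21. Etv4 and Etv5 are ETS family genes that ERK signalling induces, while Spry4 and Dusp6 are induced by the same signal and restrain it, Spry4 upstream of ERK and Dusp6 by dephosphorylating ERK itself.

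All lines were male E14JU ESCs of 129/Ola origin, grown untreated on gelatin in serum with LIF, and every line was a single clone. MCM2-2A cells carry point mutations in MCM2, a subunit of the replicative helicase, in its domain that binds histones, and POLE4-KO lines lack the DNA polymerase epsilon subunit POLE4. The rescue experiment held 4 cultures each of WT#1, MCM2-2A#2 and MCM2-R#2, the MCM2-2A#2 clone with MCM2 returned to its wild-type sequence. The clone experiment held 7 WT clones (WT#1 to WT#4 and WT#6 to WT#8) and 8 MCM2-2A clones (MCM2-2A#1 to MCM2-2A#8) in batches named January, March and August. The POLE4 experiment held 3 libraries each of WT#1, POLE4-KO#1, POLE4-KO#2 and POLE4-KO#3. WT#1 is thus the control of all 3 experiments. Cells of the MCM2-R#2 libraries are given a wild-type genotype in the sample labels, so that this group rests on the description of the study. The totals of gene counts per library ranged from 23161127 to 35602583 in the rescue experiment, from 18369196 to 26975105 in the POLE4 experiment and from 27854706 to 67467849 in the clone experiment.

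The sequences before the starts of Klb and Dusp6 are shown because Klb was called between the genotypes and Dusp6 between MCM2-2A#3 and MCM2-2A#1 in March, the latter in a comparison added after its values were seen. They come from RefSeq windows of GRCm38.p6 and stop before the first base that either RefSeq or Ensembl annotates as transcribed. Klb lies on the plus strand of chromosome 5 at chr5:65348314-65384007 and Dusp6 on the plus strand of chromosome 10 at chr10:99263231-99267489. The stretch of Klb spans chr5:65348161-65348313 and that of Dusp6 spans chr10:99262981-99263230. Capitals mark TGACG, the core of a cAMP response element.
Klb: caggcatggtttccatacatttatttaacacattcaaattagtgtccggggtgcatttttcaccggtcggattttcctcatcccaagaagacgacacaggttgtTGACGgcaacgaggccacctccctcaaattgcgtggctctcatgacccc
Dusp6: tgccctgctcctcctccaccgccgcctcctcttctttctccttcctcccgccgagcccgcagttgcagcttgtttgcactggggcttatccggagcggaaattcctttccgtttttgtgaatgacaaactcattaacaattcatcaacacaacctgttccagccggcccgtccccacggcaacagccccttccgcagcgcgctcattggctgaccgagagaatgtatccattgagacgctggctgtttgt

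Windows of 250 bases before the RefSeq start were found for 7 of the 10 genes, with 9 windows in all. Each was searched on both strands for the ETS motif CCGGAA, the full cAMP response element TGACGTCA, its core TGACG, which lies within it, and the TATA box TATAAA. The ETS motif was found only in the Fgfr4 window, 178 bases before the start, against 12% of all 32851 windows. TGACG was found only in the Klb window, 146 bases before the start, against 17.8% of all windows. No window of the 7 genes held TGACGTCA or TATAAA, which are in 1.55% and 12.4% of all windows. Only these exact letters were searched, so variants of a motif, such as other forms of the TATA box, were not counted. The GC content was 48.0% before Klb and 56.4% before Dusp6, against a median of 52.4% over all windows.

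Some of the genes share their locus with others. Fgfr2 is annotated on chromosome 7 from 130162451 to 133123350, a span that holds 69 other annotated genes, and its exons overlap those of Ctbp2 on the same strand. Exons of Fgfr1 and Fgfr3 overlap those of Gm16159 and G630022F23Rik on the opposite strand. The libraries keep strand, but the strand setting used for counting is not given in the sources used here, so reads of these pairs cannot be told apart.

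ESC identity and the targeted genes were checked first. No gene of a 10-gene ESC marker list, which includes Fgf4, was at 0 in any library, and the summed level of the list was between 3039 and 5375 CPM, the customary unit for counts scaled to the size of each library. Pole4 was between 2.87 and 8.35 CPM in the POLE4-KO libraries and between 56.2 and 61.3 CPM in WT#1. Mcm2 does not check the genotype, since the mutation changes its sequence. It was between 217.6 and 232.8 CPM in MCM2-2A#2 and between 205 and 218 CPM in MCM2-R#2, against 397 to 439 CPM in WT#1 of the same experiment. In the clone experiment WT#6 and WT#8, with 214 to 234 CPM, lay within the range of the MCM2-2A libraries, 167 to 272 CPM. January library 1 of MCM2-2A#2 stood apart from its label. Over the 2000 most variable genes it correlated at 0.915 to 0.942 with the libraries of MCM2-2A#1 and at 0.867 and 0.890 with the other 2 libraries of its own line, and results that rest on it are given with and without it. In August, 6 of 24 libraries, of MCM2-2A#4, MCM2-2A#7, WT#3 and WT#7, were also slightly closer to another clone (mean correlation 0.917 to 0.928) than to their own (0.908 to 0.927). Of these, WT#7 library 1 was closest to a mutant clone, MCM2-2A#6 (0.917 against 0.908), and the rest to a clone of their own genotype.

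Levels are compared between genes per kilobase of annotated exon. In WT#1 of the rescue experiment Etv5 was highest, with 123.5 ± 2.73 CPM per kb (mean ± SD, n = 4 cultures). Fgf4 had 45.1 ± 4.91 and Spry4 42.5 ± 3.09 CPM per kb, which overlapped. Dusp6 followed with 23.4 ± 1.80, Etv4 with 18.6 ± 1.54 and Fgfr1 with 9.58 ± 0.49 CPM per kb. Fgfr1 was thus the most abundant receptor, above Fgfr2 with 3.34 ± 0.19, Fgfr4 with 0.649 ± 0.214 and Fgfr3 with 0.240 ± 0.031 CPM per kb. Klb was lowest with 0.102 ± 0.022 CPM per kb. The order was the same in WT#1 of the other experiments, except that Spry4 and Dusp6 did not differ beyond their spread there. In the clone experiment Fgf4 and Dusp6 overlapped as well, as did Fgfr3 and Fgfr4. Counts limit the precision at the low end. Klb had 1 to 103 counts per culture or library, Fgfr4 12 to 228 and Fgfr3 13 to 237, while Fgfr2 never fell below 115 and the other 6 genes never below 825.

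**Figure D1:**
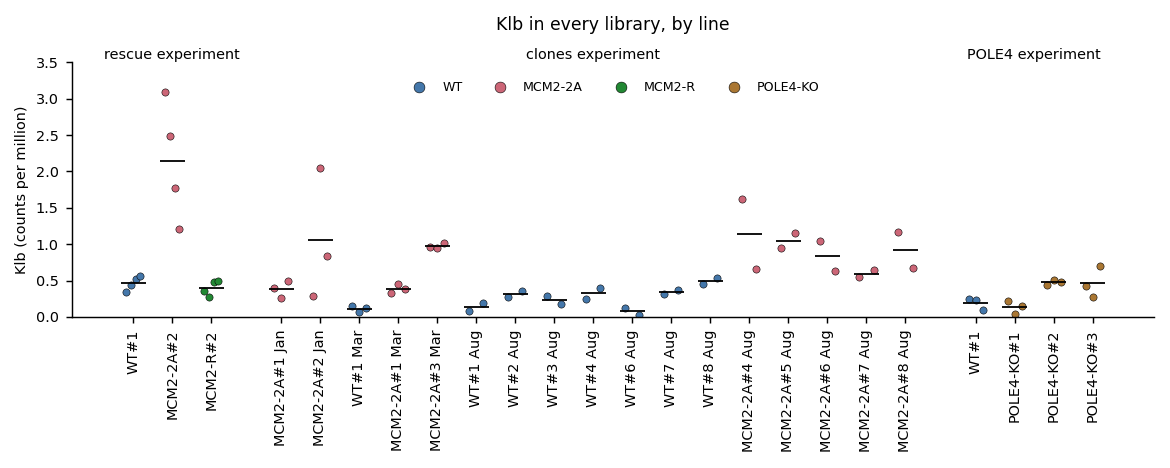
Klb in CPM (vertical axis) for every culture or library (points) of every line, grouped by experiment and, in the clone experiment, by batch, with black lines at line means. In March and August the means of the MCM2-2A lines lie above those of the WT lines of the same batch, and MCM2-R#2 overlaps WT#1.

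Whether MCM2-2A clones differed from WT clones was asked in the clone experiment. Libraries of a clone were summed there within a batch to give 9 MCM2-2A and 8 WT units. WT#1 entered in both March and August, and MCM2-2A#1 in both January and March. The fit has no term for the clone and treats these units as independent, so n counts units and not clones, and p-values may be too small. WT and MCM2-2A clones could be compared within a batch in March and August only, since the WT clone of January is not analysed here. All 10 genes passed the filter on low counts. Klb, the co-receptor gene, had a lowest, median and highest value of 0.380, 0.945 and 1.147 CPM in the MCM2-2A units and of 0.0742, 0.280 and 0.480 CPM in the WT units. The groups overlapped through MCM2-2A#1, at 0.380 CPM in January and 0.389 CPM in March, against 0.480 CPM in WT#8. The means were 0.798 ± 0.286 CPM (n = 9) and 0.251 ± 0.137 CPM (n = 8), and the log2 fold change with batch as a term was 1.88 ± 0.35 (SE, edgeR adjusted p = 0.0072). Klb was the only gene of the 10 called, where a call needs an adjusted p under 0.01 together with a log2 fold change of more than 0.58 in either direction. By the same limits 0.679% of the 23265 genes tested were called. In these bulk samples a change in the number of cells that express a gene and a change in RNA per cell cannot be told apart.

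The call of Klb is near the limit, while its size is not. The log2 fold change stayed between 1.599 and 2.05 in all alternatives. Leaving out 1 clone at a time ended the call in 11 of 15 fits, for each clone except MCM2-2A#1, MCM2-2A#2, WT#6 and WT#8, with adjusted p between 0.0102 and 0.0676, the last without WT#1. With the MCM2-2A#2 unit made from January libraries 2 and 3 alone, the adjusted p of Klb was 0.0119. DESeq2 gave Klb an adjusted p of 1.0e-05 on the same units.

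In August, 2 libraries were made from each of 5 MCM2-2A and 7 WT clones, and all 5 MCM2-2A clones were above all 7 WT clones for Klb. The MCM2-2A clones had 0.589 (MCM2-2A#7), 0.752 (MCM2-2A#6), 0.955 (MCM2-2A#8), 1.06 (MCM2-2A#5) and 1.147 CPM (MCM2-2A#4). The WT clones ranged from 0.0742 CPM in WT#6 over a median of 0.313 to 0.480 CPM in WT#8. Of the 20738 genes tested in August, 3.28% did not overlap between the genotypes and 1.75% had all MCM2-2A clones above all WT clones. In August alone the log2 fold change of Klb was 1.72 (adjusted p = 0.0248), and 1.599 (adjusted p = 0.044) without WT#1, so the direction held while the call did not.

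Fgfr4 and Fgfr2 differed in opposite directions without passing the limit. Fgfr4 had a mean of 1.61 ± 0.49 CPM in MCM2-2A units and 0.814 ± 0.302 CPM in WT units, with a log2 fold change of 0.80 ± 0.24 (adjusted p = 0.070). Fgfr2, a receptor gene that primitive endoderm relies on together with Fgfr1, had 13.8 ± 3.90 and 19.4 ± 3.11 CPM, a log2 fold change of -0.62 ± 0.19 (adjusted p = 0.080). With single libraries as units, which treats libraries of a clone as independent, Fgfr2 and Fgfr4 passed the limits as well. In August MCM2-2A#4, MCM2-2A#6 and MCM2-2A#7 lay between 0.851 and 1.16 CPM for Fgfr4, inside the WT range of 0.4664 to 1.47 CPM, and MCM2-2A#5 and MCM2-2A#8 lay above it, with 2.19 and 1.48 CPM. For Fgfr2 only MCM2-2A#6, with 11.9 CPM, and MCM2-2A#8, with 5.12 CPM, lay below the WT range of 13.8 to 24.2 CPM.

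Fgfr1, the main receptor gene, had 60.0 ± 10.0 CPM in MCM2-2A units and 66.5 ± 8.91 CPM in WT units (log2 fold change -0.23 ± 0.10, adjusted p = 0.22). The ligand gene Fgf4 had 130.4 ± 33.1 and 138.5 ± 22.2 CPM, with a log2 fold change of 0.06 ± 0.12 (adjusted p = 0.85) once batch was a term. Among the ERK response genes, Spry4 had 196.6 ± 41.4 and 166.4 ± 39.2 CPM (0.38 ± 0.13, adjusted p = 0.10). None of these 3 genes passed the limits. Etv4 had 60.8 ± 16.6 and 52.5 ± 14.0 CPM (0.30 ± 0.18, adjusted p = 0.35). Etv5 had 337.7 ± 42.1 and 386.8 ± 27.5 CPM (-0.11 ± 0.051, adjusted p = 0.24). Dusp6 had 77.9 ± 27.9 and 79.9 ± 17.5 CPM (-0.16 ± 0.22, adjusted p = 0.75). The units of the 2 genotypes overlapped for each of these 6 genes. Fgfr3 rested on a single clone: its log2 fold change was 0.27 ± 0.44 (adjusted p = 0.79) with MCM2-2A#8 and -0.43 without it.

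**Figure D2:**
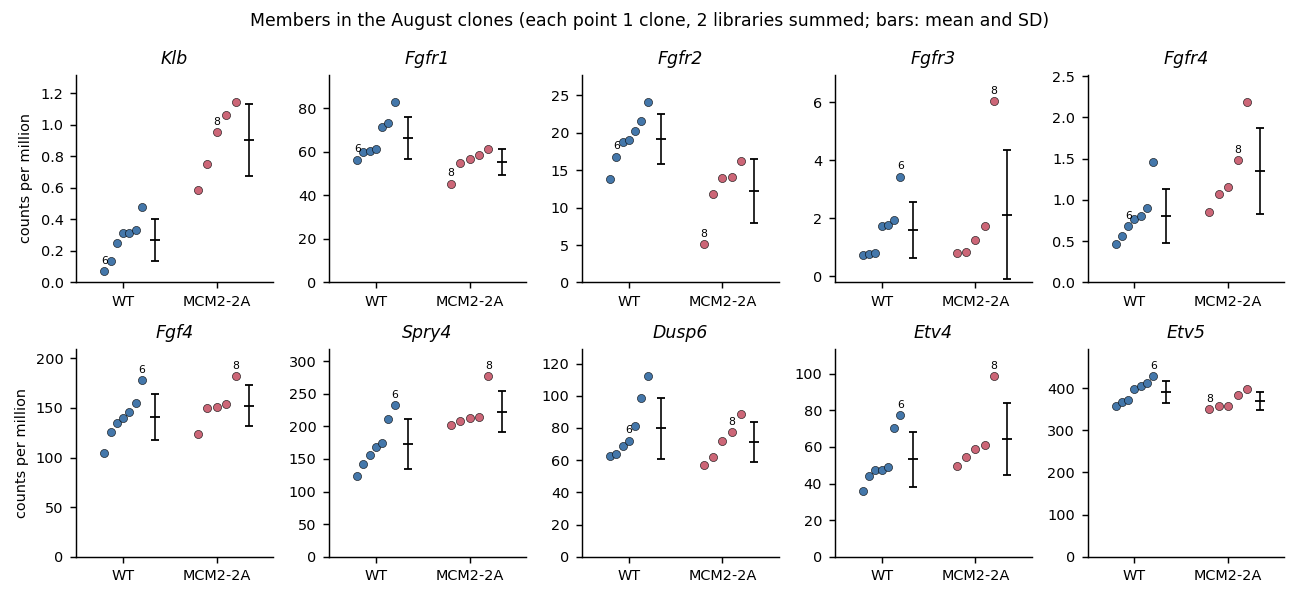
Levels in CPM (vertical axes) of the 10 genes in the 12 August clones, 1 point per clone with its libraries summed, WT on the left and MCM2-2A on the right of each panel, and bars for the mean and SD. WT#6 and MCM2-2A#8 carry their numbers. Only for Klb do the genotypes separate without overlap, and MCM2-2A#8 is at an extreme for Fgfr2, Fgfr3, Spry4 and Etv4.

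Clones of a genotype differed from each other in most of these genes. With libraries as units, an F test over the 7 August WT clones called 7 of the 10 genes (adjusted p below 0.01), where 24.3% of the genes tested were called. Those were Fgfr1, Fgfr2, Fgfr3, Fgf4, Spry4, Dusp6 and Etv4. Among the 5 MCM2-2A clones the same 7 genes were called, where 18.8% of all genes tested were. Klb differed 6.56 times between the lowest and the highest WT clone, yet was not called (adjusted p = 0.063), and it was not called among the MCM2-2A clones either (1.91 times, adjusted p = 0.43). Libraries of a clone share that clone, so these p-values measure only the spread within clones.

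WT#1 and WT#6 were at the ends of the WT range for Fgf4, Spry4, Etv4 and Fgfr1, while WT#8 was lowest for Fgfr2, Fgfr3, Fgfr4 and Dusp6. Mean Fgf4 was 102.1 CPM in WT#1 and 172.9 CPM in WT#6 (adjusted p over the 7 clones = 0.0015). Spry4 was at 120.8 and 226.2 CPM (adjusted p = 1.1e-05) and Etv4 at 35.2 and 75.4 CPM (adjusted p = 2.0e-06). Fgfr1 had the opposite order, with 80.7 CPM in WT#1 and 54.9 CPM in WT#6 (adjusted p = 0.0012). The 2 WT clones with the highest Spry4 and Etv4, WT#6 and WT#8, were also those with the low Mcm2 level given above. The part of that in these results was not tested. Among MCM2-2A clones MCM2-2A#8 was at an end of the range for 7 genes, lowest for Fgfr1 (44.4 CPM), Fgfr2 (4.95 CPM) and Etv5 (342.2 CPM, a gene not called here) and highest for Fgfr3 (5.77 CPM), Spry4 (270.2 CPM), Etv4 (96.3 CPM) and Fgf4 (178.9 CPM). Fgfr2 in that clone was 3.20 times below MCM2-2A#5 (adjusted p over the 5 clones = 4.1e-06), and Fgfr3 was 7.06 times above MCM2-2A#7 (7.2e-06).

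Levels of the 12 August clones were compared pairwise for 10 gene pairs, as log2 CPM with permutation tests. Spry4 and Etv4 were correlated (Pearson r = 0.908, permutation p adjusted over the 10 pairs = 2.0e-04, Spearman rho = 0.916, adjusted permutation p = 6.0e-04). The unadjusted permutation p of this r, 2.0e-05, is the smallest that the permutations can give. Without WT#1 and WT#2, the clones farthest from the median of Spry4, r was 0.875, and within the 7 WT clones r was 0.975 (adjusted exact permutation p = 0.0079). Dusp6 and Etv5, the other ERK response genes, gave no pair past an adjusted p of 0.05. Spry4 with Dusp6 gave r = -0.558 (adjusted permutation p = 0.094), Etv4 with Dusp6 -0.512 (0.094), Dusp6 with Etv5 -0.54 (0.094), Etv4 with Etv5 0.141 (0.73) and Spry4 with Etv5 -0.005 (0.98). Without WT#1 and WT#2 r was 0.114 for Spry4 with Dusp6, so its sign turned, -0.081 for Etv4 with Dusp6, -0.65 for Dusp6 with Etv5 and -0.242 for Spry4 with Etv5, and it was 0.464 for Etv4 with Etv5 without MCM2-2A#8 and WT#6. Within the 7 WT clones these pairs gave, in the order first named, r of -0.76, -0.69, -0.744, 0.752 and 0.708 (adjusted exact permutation p = 0.074, 0.074, 0.089, 0.074 and 0.089).

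Receptor genes had negative correlations. Fgfr1 with Spry4 gave r = -0.901 (adjusted permutation p = 0.0011, rho = -0.762, adjusted permutation p = 0.014), with r = -0.752 when MCM2-2A#8 and WT#1 were left out and -0.825 within the WT clones (adjusted exact permutation p = 0.060). Fgfr2 with Gata6, which drives primitive endoderm fate, gave r = -0.831 (adjusted permutation p = 0.0011, rho = -0.825, adjusted permutation p = 0.0069), with r = -0.793 without the same 2 clones and -0.848 within WT (adjusted exact permutation p = 0.060). Klb and Gata6 gave r = 0.758 over the 12 clones (adjusted permutation p = 0.0082, rho = 0.811, adjusted permutation p = 0.0069). Without WT#1 and WT#6 r was 0.925. For Klb the genotypes form separate clusters, so these values mix the difference between genotypes with any relation within them. Within the 7 WT clones r was 0.021 (exact permutation p = 0.95). Klb had only 1 to 18 counts per August WT library, so a relation within WT could be missed. Fgf4 and Spry4 gave r = 0.764 (adjusted permutation p = 0.0097) but rho = 0.545 (adjusted permutation p = 0.12). For this pair r fell to 0.437 without MCM2-2A#8 and WT#1, so its size depended on those clones. Within the 7 WT clones, WT#1 among them, r was 0.825 (adjusted exact permutation p = 0.060). The 2 genotypes were pooled in the values over 12 clones, and the 5 MCM2-2A clones are too few for a correlation of their own.

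**Figure D3:**
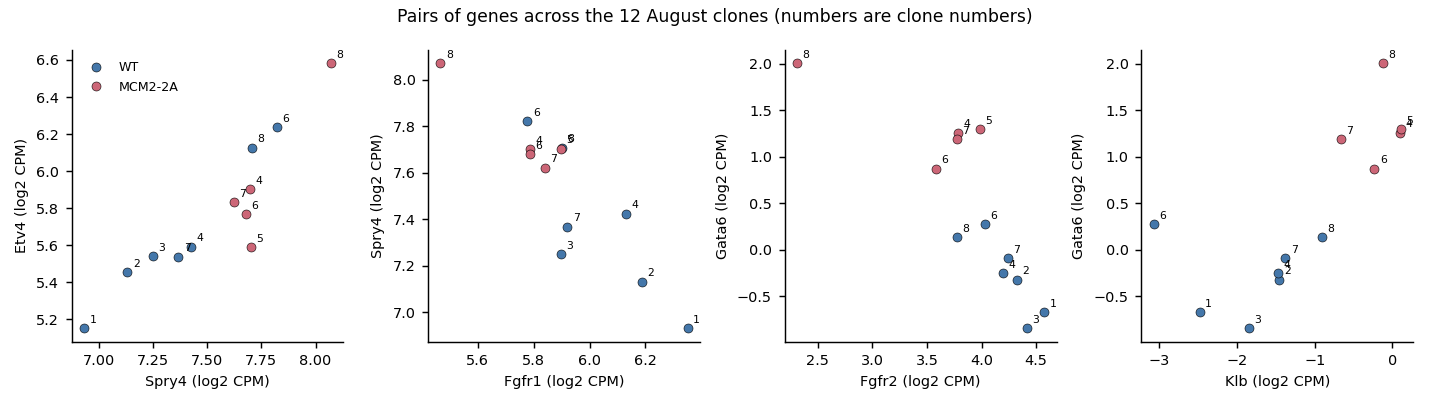
Log2 CPM of 4 gene pairs in the 12 August clones, 1 point per clone, numbered, with colours for the genotype. Spry4 and Etv4 rise together (r = 0.908), Fgfr1 falls with Spry4 (r = -0.901) and Fgfr2 with Gata6 (r = -0.831). In the panel of Klb against Gata6 the genotypes stand apart (r = 0.758 over all clones). The WT clones alone, with low counts of Klb, gave r = 0.021.

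The March libraries set 2 MCM2-2A clones beside WT#1, with 3 libraries each. In MCM2-2A#3, 6 of the 10 genes were called, where 12.6% of the 20643 genes tested were called, and in MCM2-2A#1, 1 gene was called, where 5.18% were. Both comparisons share the WT#1 libraries. Klb was at 0.0691, 0.116 and 0.149 CPM in WT#1, at 0.327, 0.3902 and 0.447 CPM in MCM2-2A#1 and at 0.943, 0.968 and 1.01 CPM in MCM2-2A#3. The 3 lines did not overlap, and MCM2-2A#3 was highest. Over all genes tested 32.1% did not overlap between MCM2-2A#1 and WT#1, and 43.8% between MCM2-2A#3 and WT#1. The log2 fold change over WT#1 was 1.80 ± 0.34 (adjusted p = 0.0035) in MCM2-2A#1 and 3.13 ± 0.31 (adjusted p = 1.4e-05) in MCM2-2A#3. The call in MCM2-2A#1 was lost without WT#1 library 2 or 3 or without MCM2-2A#1 library 5 or 6, with adjusted p of 0.0107 to 0.0156. WT#1 had 4 to 7 counts of Klb in these libraries.

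Dusp6 parted the 2 mutant clones. It was at 79.2, 80.6 and 81.1 CPM in WT#1, at 109.8, 115.3 and 125.7 CPM in MCM2-2A#1, and at 29.3, 29.5 and 31.8 CPM in MCM2-2A#3. MCM2-2A#3 thus lay below WT#1 (log2 fold change -1.41 ± 0.072, adjusted p = 1.2e-07) and MCM2-2A#1 above it, by 0.53 ± 0.071 (adjusted p = 3.4e-04), which is under the fold limit. In a direct comparison, added after these values were seen, the log2 fold change of MCM2-2A#3 over MCM2-2A#1 was -1.95 ± 0.073 (adjusted p = 4.9e-09). Fgf4 also parted them. Its levels were 121.5, 121.7 and 124.9 CPM in WT#1, 81.7, 83.9 and 86.6 CPM in MCM2-2A#1 and 128.5, 131.3 and 134.6 CPM in MCM2-2A#3. The log2 fold change over WT#1 was -0.55 ± 0.062 in MCM2-2A#1 (adjusted p = 1.2e-04, under the fold limit) and 0.10 ± 0.062 in MCM2-2A#3 (adjusted p = 0.24), and MCM2-2A#3 over MCM2-2A#1 gave 0.65 ± 0.062 (adjusted p = 4.5e-06). Klb differed between them by 1.33 ± 0.25 (adjusted p = 9.8e-04). These 3 genes were the ones called between the 2 clones, where 18.2% of all genes tested were called.

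The other genes called in MCM2-2A#3 were Spry4, Etv4, Fgfr2 and Fgfr4. Spry4 was at 175.9, 184.8 and 216.3 CPM against 118.3, 118.9 and 130.5 CPM in WT#1 (0.65 ± 0.083, adjusted p = 1.0e-04). Etv4 was at 68.7, 73.5 and 79.8 CPM against 43.1, 48.9 and 49.8 CPM (0.65 ± 0.082, adjusted p = 1.0e-04). Both were higher in every library, so Spry4 and Etv4 moved opposite to Dusp6 in this clone. Fgfr2 was at 11.2, 12.3 and 12.4 CPM against 15.7, 21.6 and 24.3 CPM (-0.78 ± 0.15, adjusted p = 0.0017). Fgfr4 was at 1.17, 1.67 and 2.24 CPM against 0.733, 0.831 and 1.00 CPM (0.98 ± 0.25, adjusted p = 0.0098). Fgfr4 is the least secure of the 6, since leaving out any of 5 of the 6 libraries raised its adjusted p to between 0.0147 and 0.0533. Etv4 fell under the fold limit without WT#1 library 1 (0.57), as Spry4 did without MCM2-2A#3 library 3 (0.56). In MCM2-2A#1 Fgfr4 was at 1.54, 1.91 and 2.05 CPM, with a log2 fold change of 1.09 ± 0.24 that missed the limit (adjusted p = 0.0104) and passed it with DESeq2, other scaling or no filter. Fgfr1, Fgfr3 and Etv5 were not called in either clone, with log2 fold changes from -0.47 to 0.14.

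Markers of fibroblasts moved with these lines. Their summed level over 9 genes, collagens among them, was 43.3 to 64.7 CPM in the March libraries of WT#1, 65.0 to 92.8 CPM in MCM2-2A#1 and 7.33 to 7.74 CPM in MCM2-2A#3. Of the 9 markers 5 were called lower in MCM2-2A#3, led by Col3a1 (-4.89) and Col1a1 (-3.99). Mean levels of Dcn and Lum, which define fibroblasts, were near 0 in both lines, with 0.0918 and 0.104 CPM in MCM2-2A#3 and 0.165 and 0.0714 CPM in WT#1. Up to 5 of the 9 markers were at 0 in a WT library of the clone experiment and up to 3 in an MCM2-2A library. In August the sum was 51.6 and 72.1 CPM in WT#1, 16.1 and 26.5 CPM in WT#2, 76.4 and 91.3 CPM in WT#4, 62.5 and 69.3 CPM in MCM2-2A#5, and between 3.37 and 11.2 CPM in the other 8 clones. The same 4 August clones had the highest Dusp6 of that batch, with 112.3, 98.7, 81.0 and 88.4 CPM, against 57.0 to 77.4 CPM in the other 8. The part of this in the Dusp6 results was not tested.

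In January the clone of the rescue experiment, MCM2-2A#2, was compared with MCM2-2A#1. None of the 10 genes was called by edgeR or by DESeq2, 4 had an unadjusted p below 0.05 with edgeR and 5 with DESeq2, and 0.0607% of the genes tested were called. That result rests on the library that stood apart. Klb was at 0.285 CPM in January library 1 of MCM2-2A#2 and at 2.04 and 0.843 CPM in the other 2, against 0.259, 0.393 and 0.492 CPM in MCM2-2A#1. Library 1 was thus within the range of MCM2-2A#1. Over all genes tested 27.9% did not overlap between the 2 clones in January. Dusp6 was at 103.0 CPM in that library and at 76.0 and 61.0 CPM in the other 2, against 108.6, 115.7 and 125.2 CPM in MCM2-2A#1, and the fibroblast marker sum was 73.1 CPM against 37.2 and 28.5 CPM. Without library 1, Fgfr1 (log2 fold change -0.59, adjusted p = 0.0029), Fgf4 (0.67, adjusted p = 0.0015), Spry4 (0.69, adjusted p = 0.0012) and Dusp6 (-0.73, adjusted p = 0.0038) were called. In all, 1441 genes were then called against 12 with it. Klb was not called without it (1.94, adjusted p = 0.015).

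None of the 10 genes was called in the POLE4 experiment, where each knockout line and their mean were compared with WT#1. Of all 16864 genes tested 5.74% were called in the mean of the 3 lines, 11.5% in POLE4-KO#1, 11.3% in POLE4-KO#2 and 2.98% in POLE4-KO#3. DESeq2 called none of the 10 either. Unadjusted edgeR p-values were below 0.05 for 3 of the 10 in the mean and for 5, 5 and 6 in POLE4-KO#1, POLE4-KO#2 and POLE4-KO#3. The 4 comparisons share the 3 WT#1 libraries.

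Klb was at 0.0964, 0.228 and 0.245 CPM in WT#1, at 0.0442, 0.155 and 0.216 CPM in POLE4-KO#1, at 0.435, 0.479 and 0.508 CPM in POLE4-KO#2 and at 0.274, 0.424 and 0.704 CPM in POLE4-KO#3. POLE4-KO#2 and POLE4-KO#3 lay above WT#1 and POLE4-KO#1 overlapped it, on 1 to 19 counts per library. Over all genes tested 40.6% did not overlap between POLE4-KO#1 and WT#1, 41.3% between POLE4-KO#2 and WT#1 and 34.1% between POLE4-KO#3 and WT#1. The log2 fold changes were -0.49 ± 0.63 (adjusted p = 0.61), 1.28 ± 0.50 (adjusted p = 0.062) and 1.30 ± 0.50 (adjusted p = 0.096) in POLE4-KO#1, POLE4-KO#2 and POLE4-KO#3. Fgfr2 passed the p limit in the mean of the knockouts but not the fold limit, with 37.4 ± 4.14 CPM (n = 9) against 29.2 ± 3.69 CPM in WT#1 (n = 3, log2 fold change 0.34 ± 0.069, adjusted p = 0.0020). Without WT#1 library 2 it was called in POLE4-KO#1 (0.59). In POLE4-KO#1 Fgfr1 (-0.33, adjusted p = 0.0012), Dusp6 (-0.44, adjusted p = 4.2e-04), Fgf4 (0.48, adjusted p = 8.5e-04) and Fgfr2 (0.50, adjusted p = 2.9e-04) passed the p limit and not the fold limit. The same was so for Dusp6 in POLE4-KO#2 (-0.38, adjusted p = 0.0015) and for Fgfr1 (0.28, adjusted p = 0.0088) and Fgfr2 (0.41, adjusted p = 0.0046) in POLE4-KO#3.

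**Figure D4:**
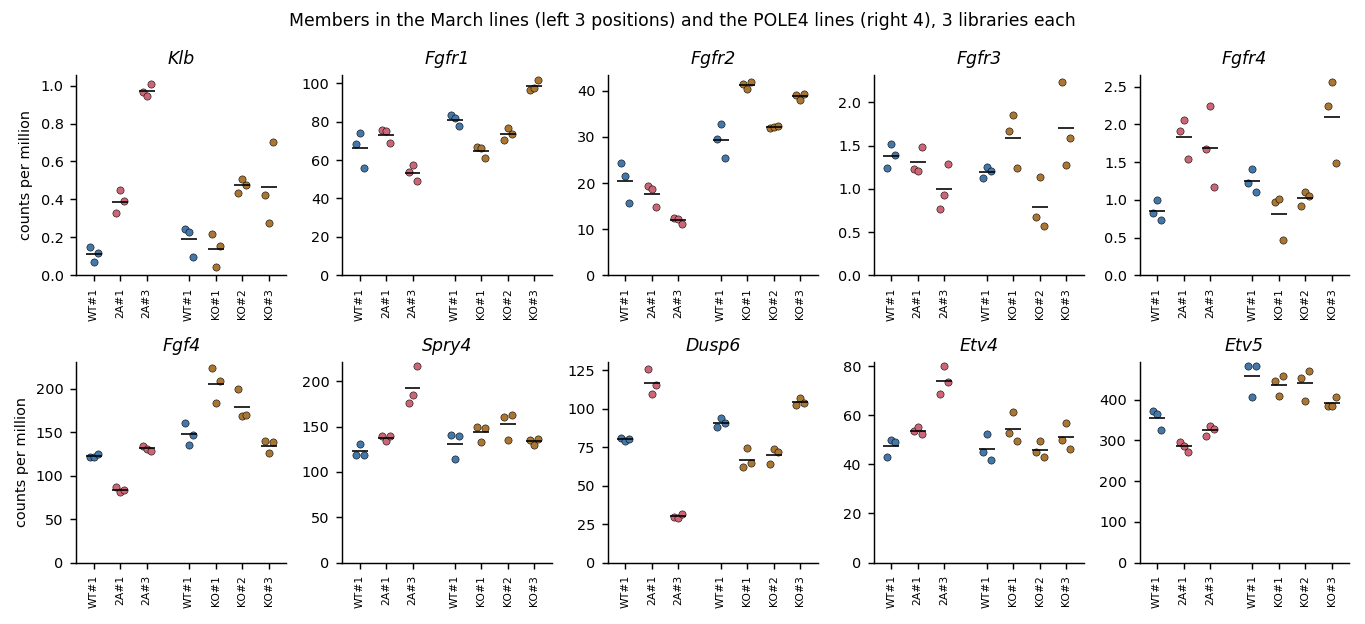
Levels in CPM (vertical axes) of the 10 genes in the 3 lines of March (left) and the 4 lines of the POLE4 experiment (right), with 3 libraries per line as points and their mean as a line. Dusp6 lies lowest in MCM2-2A#3 and highest in MCM2-2A#1 among the March lines, and between 61.9 and 107.2 CPM in the POLE4-KO libraries.

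The knockout lines differed from each other. An F test over the 3 lines called Fgfr1, Fgfr2, Fgfr4, Fgf4 and Dusp6, 5 of the 10 genes, where 31.2% of all genes tested were called. Dusp6 was at 61.9, 64.6 and 74.6 CPM in POLE4-KO#1, at 64.2, 71.8 and 74.0 CPM in POLE4-KO#2 and at 102.5, 103.9 and 107.2 CPM in POLE4-KO#3, with 88.1, 90.9 and 94.2 CPM in WT#1 between them (adjusted p over the 3 knockout lines = 6.5e-06). Fgfr1 had the same order, with means of 64.6, 73.7 and 98.6 CPM (adjusted p = 3.8e-06) and 81.1 CPM in WT#1. Fgf4 went the other way, with 205.8, 179.7 and 134.9 CPM (adjusted p = 1.6e-04) and 148.0 CPM in WT#1. Fgfr4 had 0.817, 1.02 and 2.09 CPM (adjusted p = 0.0027) and Fgfr2 41.3, 32.1 and 38.8 CPM (adjusted p = 0.0052). Spry4, Etv4, Etv5, Fgfr3 and Klb were not called, with adjusted p of 0.21, 0.13, 0.18, 0.016 and 0.020. The fibroblast marker sum was 5.12 to 5.61 CPM in POLE4-KO#1, 9.53 to 11.8 CPM in POLE4-KO#2, 70.9 to 89.0 CPM in POLE4-KO#3 and 79.7 to 80.9 CPM in WT#1, and its part in these differences was not tested.

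**Figure D5:**
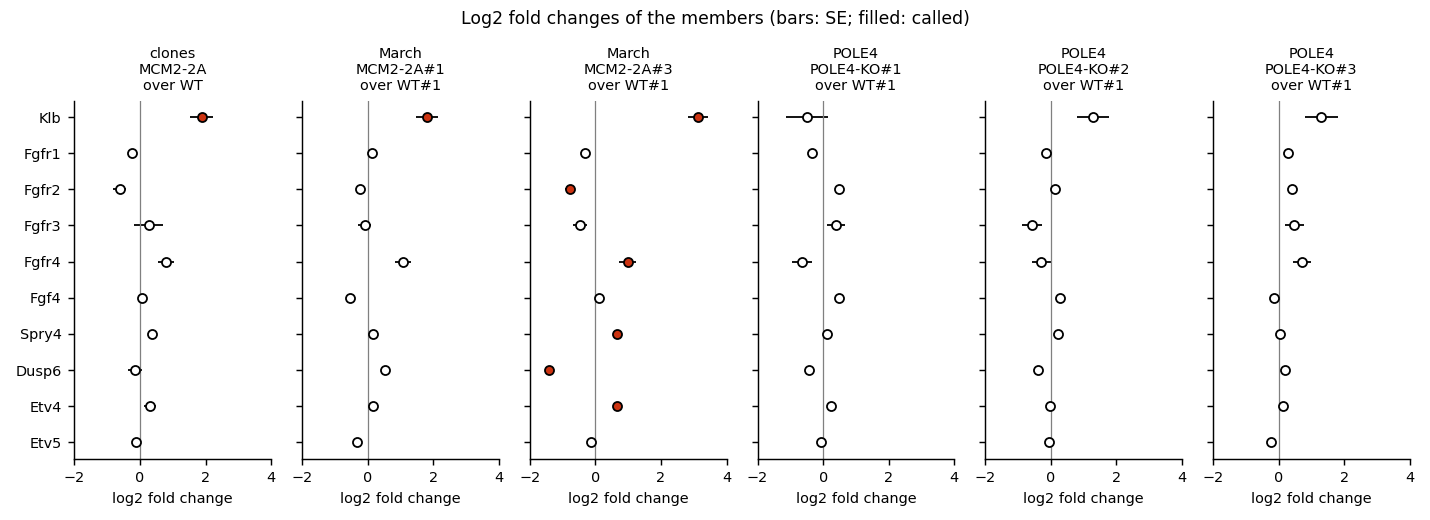
Log2 fold change (horizontal axes, bars for SE) of the 10 genes in 6 comparisons, with filled points for genes past both limits of a call. Klb is filled in the 3 MCM2-2A panels, 5 further genes in MCM2-2A#3 and none in the POLE4-KO panels.

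The rescue experiment is described without a test of the 10 genes, because Klb was listed with this comparison known, and its log2 fold changes and SE are descriptions. Klb was at 1.21, 1.78, 2.48 and 3.09 CPM in the 4 cultures of MCM2-2A#2, at 0.338, 0.435, 0.528 and 0.560 CPM in WT#1 and at 0.269, 0.362, 0.475 and 0.487 CPM in MCM2-R#2. The MCM2-2A#2 cultures were all above the others, and WT#1 and MCM2-R#2 overlapped. The log2 fold change was 2.15 ± 0.28 for MCM2-2A#2 over WT#1, -0.28 ± 0.35 for MCM2-R#2 over WT#1 and -2.43 ± 0.30 for MCM2-R#2 over MCM2-2A#2. Over all 17098 genes tested, 2.76% passed both limits in MCM2-2A#2 over WT#1 and 1.37% in MCM2-R#2 over MCM2-2A#2. For MCM2-R#2 against WT#1 this share was 0.298%, and nothing is read from these shares for the 10 genes.

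The remaining genes differed less. Spry4 was at 266.9, 301.6, 302.2 and 317.1 CPM in MCM2-2A#2, at 181.0, 204.3, 209.7 and 213.8 CPM in WT#1 and at 174.4, 182.9, 222.0 and 248.9 CPM in MCM2-R#2. Fgfr1 was at 69.3, 73.3, 74.2 and 77.1 CPM in MCM2-2A#2, at 89.9, 92.2, 95.4 and 101.0 CPM in WT#1 and at 92.5, 92.9, 97.2 and 97.4 CPM in MCM2-R#2. Neither gene's MCM2-2A#2 cultures overlapped those of the other 2 lines, with Spry4 higher and Fgfr1 lower in MCM2-2A#2. Etv5 was at 404.9, 415.4, 437.1 and 447.3 CPM in MCM2-2A#2, below WT#1 (490.5 to 515.9 CPM) and MCM2-R#2 (465.9 to 507.8 CPM). Over all genes tested 18.9% had ranges of MCM2-2A#2 and WT#1 that did not overlap, 14.3% had such ranges of MCM2-R#2 and MCM2-2A#2, and 6.15% of MCM2-R#2 and WT#1. Fgfr2 was at 25.9 to 30.1 CPM in MCM2-2A#2, below WT#1 (33.0 to 37.2 CPM) but not below MCM2-R#2 (28.7 to 39.1 CPM). Fgfr4 ranged from 2.24 to 4.81 CPM in MCM2-2A#2 and overlapped WT#1 (1.35 to 3.12 CPM) and MCM2-R#2 (1.57 to 2.82 CPM). Fgf4, Fgfr3, Etv4 and Dusp6 overlapped between MCM2-2A#2 and WT#1. No culture of MCM2-R#2 was in the second sequencing run, which held WT#1 and MCM2-2A#2 cultures in part. The fibroblast marker sum was 46.6 to 95.3 CPM in WT#1, 40.3 to 69.7 CPM in MCM2-2A#2 and 48.1 to 169.7 CPM in MCM2-R#2. Primitive endoderm genes moved with Klb here. Their sum was 903.2 to 978.3 CPM in MCM2-2A#2, 619.1 to 705.5 CPM in WT#1 and 698.0 to 810.2 CPM in MCM2-R#2, with none of the 17 at 0 in any culture. Of the 17 genes 12 were called higher in MCM2-2A#2 than in WT#1 (median log2 fold change 1.22, against 0.007 over all genes) and 11 lower in MCM2-R#2 than in MCM2-2A#2 (median -1.28, against -0.0038). None was called between MCM2-R#2 and WT#1 by edgeR, with 3 at an unadjusted p below 0.05. The list was chosen with results of these samples known, so it is not independent evidence, and its part in the Klb values was not tested.

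Genes around the 10 were read from lists of the pathway. Across clones 0.679% of all genes tested were called, so a list without a call there is not a result about its genes. In the clone experiment none was called among 15 tested FGF ligand genes, 21 genes of co-receptors and heparan sulphate synthesis, 10 adaptor genes, 14 genes of the RAS to ERK cascade and 26 further feedback and ERK response genes (by edgeR, with 4, 5, 1, 7 and 4 genes at an unadjusted p below 0.05). The most highly expressed gene of the ligand, co-receptor, adaptor and feedback lists was, in this order, Fgf17 (14.9 CPM in MCM2-2A and 22.0 CPM in WT units), the syndecan gene Sdc4 (108.2 and 77.4 CPM), the adaptor gene Gab1 (300.8 and 306.9 CPM) and the Sprouty gene Spry2 (120.0 and 130.1 CPM). The median log2 fold changes of the 5 lists were -0.04, -0.21, -0.04, -0.08 and -0.10, against -0.0016 over all genes. Of 17 primitive endoderm genes 3 were called higher, Gata6 (1.69 ± 0.24, adjusted p = 0.0012), Sox17 (1.24 ± 0.23, adjusted p = 0.0083), another transcription factor of that lineage, and Pdgfra (1.20 ± 0.20, adjusted p = 0.0038), its receptor marker. The median of the 17 was 0.59. Among 11 naive pluripotency genes Tbx3 was called higher (0.64 ± 0.12, adjusted p = 0.0077), and among 6 formative epiblast genes none was called, with 1, the DNA methyltransferase gene Dnmt3b, at an unadjusted p below 0.05 (334.1 and 447.9 CPM, -0.39 ± 0.10, adjusted p = 0.047).

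In MCM2-2A#3 in March, where 12.6% of all genes tested were called, several of these lists held called genes. Of 14 ligand genes 1 was called higher and 6 lower, among them Fgf8 (-2.58) and Fgf5 (-1.38), genes of gastrulation and of the primed epiblast, and Fgf11 (-1.29), with Fgf1 higher (1.08). Of 20 co-receptor and heparan sulphate genes 1 was higher, the syndecan gene Sdc4 (0.67), and 8 were lower, led by the glypican genes Gpc6 (-2.59) and Gpc3 (-1.87), the sulphotransferase gene Hs6st2 (-1.93) and the syndecan gene Sdc2 (-1.50). In the cascade Braf (0.91) and Ksr1 (0.72), a kinase and its scaffold, were higher and the other 12 genes were not called. Of 26 feedback and response genes 6 were lower and none higher, led by Fos (-1.52), the phosphatase genes Dusp4 (-1.21) and Dusp5 (-1.10) and Spred3 (-0.95). Dusp6 thus fell together with Dusp4 and Dusp5, while Spry4, Etv4 and 6 of 17 primitive endoderm genes, led by Cubn (2.43), Gata6 (2.27), Hnf4a (2.26) and Pdgfra (1.81), rose. Tbx3 was higher (0.80) among 11 naive pluripotency genes, and Fgf5, Pou3f1 (-0.73) and Otx2 (-0.68) were lower among 6 formative epiblast genes. In MCM2-2A#1, where 5.18% of all genes tested were called, 3 feedback genes were higher and none lower: Dusp14 (1.22), Phlda1 (1.22) and Spsb1 (1.00). Of its 20 co-receptor and heparan sulphate genes 6 were higher and none lower, led by Sdc3 (0.93), Flrt3 (0.80), Sdc4 (0.79) and Hs6st2 (0.73). The adaptor gene Sos2 was higher (0.63), and no cascade gene was called. Fgf17 was lower (-1.16) and Fgf13 higher (0.60) among its ligand genes. Of its 17 primitive endoderm genes 6 were higher, led by Sox17 (1.55), Gata6 (1.30), Col4a2 (1.26) and Col4a1 (1.22). Of 11 naive pluripotency genes Nr0b1 (-0.69), Esrrb (-0.61) and Tcl1 (-0.59) were lower, and of 6 trophectoderm markers tested 5 were higher.

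In the POLE4-KO mean, where 5.74% of all genes tested were called, 5 of 25 feedback and response genes were lower and none higher: Dusp4 (-1.29), Spred3 (-0.98), Phlda1 (-0.81), Dusp14 (-0.79) and Dusp5 (-0.76). By line, 8 were lower and 1 higher in POLE4-KO#1, 8 lower and none higher in POLE4-KO#2, and none lower and 1 higher in POLE4-KO#3, the line whose fibroblast marker sum overlapped that of WT#1. Among 11 ligand genes Fgf8 was called lower in the mean (-2.80) and in all 3 lines. By line 3 ligand genes were higher and 5 lower in POLE4-KO#1, 3 lower in POLE4-KO#2 and 2 lower in POLE4-KO#3, where 11.5%, 11.3% and 2.98% of all genes tested were called. Of 20 co-receptor and heparan sulphate genes 1 was higher, Sdc4 (0.81), and 4 lower, led by Gpc6 (-1.65), Gpc3 (-0.97) and Sdc2 (-0.82). By line 7 of these were lower in POLE4-KO#1, 1 higher and 8 lower in POLE4-KO#2, and 1 higher and none lower in POLE4-KO#3. No adaptor or cascade gene was called in the mean. Of 14 primitive endoderm genes tested Sox7 (0.88) and Lama1 (0.75) were higher in the mean. By line 2 were higher and 6 lower in POLE4-KO#1, 4 higher in POLE4-KO#2 and 3 higher in POLE4-KO#3. Of 6 formative epiblast genes Lef1 (-0.75), Otx2 (-0.69) and Pou3f1 (-0.68) were lower in the mean.

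The genes with the patterns most like Klb and Spry4 were named by the correlation of batch-centred log2 CPM over the 17 units of the clone experiment. For Klb these were Cryzl2 (r = 0.954), Dazl (0.927), Extl1 (0.921), Vsir (0.918) and Npl (0.910), out of 14760 genes compared. For Spry4 they were Anpep (0.961), Pura (0.957), Fubp3 (0.947), Smyd4 (0.945) and Clip4 (0.945). The units share clones and batches, so these values are descriptions.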

How the data were processed

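Total RNA was depleted of ribosomal RNA and sequenced as strand-specific paired-end libraries. The submitters' processing notes and labels name Trimmomatic 0.39, STAR 2.7.1a and the mm10 build, and featureCounts for the POLE4 and clone experiments. The strand setting of the counting is not given in the sources used here. The 3 tables hold raw counts of reads, as deposited by the authors, for genes and repeat families. Of 55335 gene rows 55154 received symbols from GENCODE vM21, 1146 repeat rows were left out of library sizes and tests, and 3 columns that match no sample were set aside (WT#5 is not analysed here). Repeat runs of a culture were summed.

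Counts were tested with the quasi-likelihood F test of edgeR 4.0.16 in R 4.3.3 (TMM scaling, filterByExpr with a minimum count of 10 and a minimum total of 15, Benjamini-Hochberg adjustment over all genes tested). Calls used the limits given in the report (adjusted p of 0.01, log2 fold change of 0.58), and the F tests between clones need the adjusted p alone. In the clone experiment the units were libraries of a clone summed within a batch, with batch as a term. The WT clone that the labels place in January is not analysed here, so January did not directly inform the log2 fold change between genotypes. The January units still entered the scaling, the filter, the estimate of the spread and thus the p-values, and the printed means and SDs. CPM per library or unit were scaled over each whole experiment, and fold changes come from each comparison's own fit. Clone means given with the F tests between August clones were scaled over the August clones of that genotype alone. The same clone can therefore have slightly different values in 2 places. Cultures and libraries of a line share 1 clone, and nothing in the labels says that libraries of a line came from separate cultures, so p-values within lines measure only the spread between these samples, which may be technical. Test scripts were tested on simulated data. DESeq2 1.42.0, other scaling, no filter, a replicate block and fits without single libraries or clones were tried as alternatives.

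The members and lists were chosen with earlier results of these data known. The named genes were the 10 members, up to 4 genes called with the largest changes in each list, or the most highly expressed where none was called (1 such gene is not reported here), and the 5 genes most like Klb and Spry4. The comparison of MCM2-2A#3 with MCM2-2A#1, and the MCM2-2A#2 unit without January library 1, were added after values were seen. Replicate numbers may pair MCM2-2A#3 with WT#1 in March, since deviations of all 3 same-numbered pairs correlated (0.150 to 0.191). The March values and p-values reported come from fits without this pairing, and a replicate block was tried as an alternative only.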

Additional observations from a re-analysis of the deposited data

Results flagged for a closer look

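Within groups of 4 to 10 samples, 70 sets of values were searched for a sample far from the others, and 5 were found, where chance flags about 1 in 20 groups. Dusp6 in culture 2 of WT#1 in the rescue experiment was at 64.8 CPM, below the other 3 cultures. Fgfr4 in WT#4 in August was at 1.47 CPM, above the other WT clones. MCM2-2A#8 stood above the other August MCM2-2A clones for Fgfr3 (6.05 CPM), Spry4 (277.2 CPM) and Etv4 (98.7 CPM).

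Effects that differed between groups under a test of the difference were found in 2 places. Among the POLE4-KO lines the highest line over the lowest was 1.53 times for Fgfr1, 1.29 times for Fgfr2, 2.56 times for Fgfr4, 1.53 times for Fgf4 and 1.56 times for Dusp6. Between MCM2-2A#3 and MCM2-2A#1 in March, which share WT#1 as control, the log2 fold change was 1.33 for Klb, 0.65 for Fgf4 and -1.95 for Dusp6.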

How the results depend on the processing

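Of 1130 values of single genes and gene pairs in the tested comparisons recomputed under alternatives, 1057 kept their direction and side of the limits, 25 lost a call, 32 gained one and 16 changed sign. Counts of called members are not among these values. Such counts changed in 15 of 24 alternatives across clones and in 7 of 10 for MCM2-2A#1 over WT#1. The causes were not tested. Across clones, 1 member was called, 0 to 1 when 1 clone was left out, 3 with single libraries, 0 without January library 1 of MCM2-2A#2, 0 in August alone and 0 in August without WT#1. The 158 genes called there became 505 with DESeq2, 998 with single libraries, 254 without the batch term, 47 in August, 17 in August without WT#1 and 26 without WT#1. In MCM2-2A#1 over WT#1 members called were 0 to 1 without a library, 2 with DESeq2, other scaling or no filter, and 5 at an adjusted p below 0.05 with no fold limit. In MCM2-2A#3 over WT#1 they were 4 to 5 without a library, and in MCM2-2A#3 over MCM2-2A#1 they were 3 to 4, and 8 at the looser limit. In January they were 0 to 4, with 12 genes called in all against 482 with DESeq2, 553 with no filter and 1441 without library 1 of MCM2-2A#2. At the looser limit 2 members were called in the POLE4-KO mean, 4 in POLE4-KO#1, 2 in POLE4-KO#2 and 2 in POLE4-KO#3, and without a library 0 to 1 in POLE4-KO#1. With no filter, called genes rose from 1069 to 1633 in MCM2-2A#1, from 503 to 847 in POLE4-KO#3, from 4890 to 7543 among August WT clones and from 3664 to 6240 among August MCM2-2A clones.

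In the rescue experiment, where members were not tested and counts are descriptions, members past the limits for MCM2-2A#2 over WT#1 were 2 with no filter, the replicate block, the first run alone or run as a term, 4 at the looser limit, and 1 to 2 without a culture. The 472 genes became 792 with no filter, 918 with the block, 744 with run as a term and 303 in the first run. For MCM2-R#2 over MCM2-2A#2 members were 2 with no filter or run as a term, 4 at the looser limit and 1 to 2 without a culture. The 234 genes became 386 with DESeq2, 584 with no filter and 375 with run as a term, and for MCM2-R#2 over WT#1 51 became 87 with no filter.

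Values that changed sign were those near 0. With 1 clone or library left out, log2 fold changes ranged from -0.43 to 0.50 for Fgfr3 and from -0.0077 to 0.10 for Fgf4 across clones, where Fgf4 was -0.0739 without the batch term. They ranged from -0.17 to 0.0133 for Fgfr3 in MCM2-2A#1, from -0.37 to 0.098 for Fgfr4 in MCM2-2A#3 over MCM2-2A#1, and from -0.0058 to 0.21 for Fgfr4 and from -0.28 to 0.18 for Fgfr2 in January. They ranged from -0.15 to 0.0327 for Fgfr4 and from -0.0230 to 0.16 for Fgfr3 in the POLE4-KO mean, from -0.098 to 0.0732 for Etv4 and from -0.13 to 0.0021 for Etv5 in POLE4-KO#2, and from -0.0633 to 0.080 for Spry4 in POLE4-KO#3. The replicate block changed no member's call in March, with the same 6 members among 2920 genes against 2601. It called 0 members among 17 genes in January. Deviations of same-numbered pairs correlated above 0.1 for 2 of 3 pairs in January and for 3 of 4 pairs of MCM2-2A#2 and WT#1 in the rescue experiment. Differently numbered pairs did so for 2 of 6 and 2 of 12, so whether the numbers pair these samples is not settled. For the other comparisons between lines no paired analysis was possible. In the tables, the WT#1 libraries of the POLE4 experiment are numbered differently from their labels and from the knockouts. MCM2-2A#1 shares no number in March with WT#1 or MCM2-2A#3. The MCM2-R#2 columns carry another line number than the labels and were tied to their group only. Low counts limit Klb, Fgfr3 and Fgfr4.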
